A study of Equus asinus with 3 samples.

Results

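Among the luminal epithelial cells of the donkey epididymal caput, a group of 306 cell barcodes carried transcripts of EDDM13 (epididymal protein 13) at a high ratio to those of the beta-defensin DEFB119. By the choice of barcodes, they held little of the CST11/PTGDS secretory program found in other caput luminal cells. These EDDM13-rich barcodes were chosen by 3 conditions on unique molecular identifiers (UMIs, the tags that mark single captured transcripts). DEFB119 made up at least 0.8% of a barcode's UMIs, the sum of CST11, PTGDS, DEFB113, RNASE10 and LCN6 stayed under 1.2%, and EDDM13 UMIs numbered at least 0.45 times those of DEFB119. The 306 barcodes were 3.23% of the 9478 caput barcodes (exact binomial 95% interval 2.88 to 3.60%) and part of 27699 barcodes in all 3 libraries.

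The epididymis is the duct in which spermatozoa leaving the testis mature, and the caput is its first segment. Its lining is made mostly of principal (luminal) cells, which secrete proteins that coat or bind sperm, protease inhibitors, lipocalins, ribonucleases without the usual enzymatic role and many beta-defensins, and which take up material from the lumen and break it down in lysosomes. Which secretory genes a principal cell uses changes along the duct, so neighbouring cells can differ in their products while sharing the same epithelial identity.

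The study profiled dissociated tissue of sexually mature male donkeys (Equus asinus) with droplet single-cell RNA sequencing (DNBelab C4). There was 1 library each of epididymis caput, epididymis corpus (the next segment) and testis, with no treatment or genotype. The series design speaks of 3 animals, without saying which of them gave which library. The labels call both epididymal libraries somatic cells and the testis library germ cells.

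The caput library held 13203203 UMIs, with a median of 1145 and no barcode under 843. The EDDM13-rich barcodes held 477462 UMIs, between 844 and 8139 each with a median of 1213, and a median of 781.5 genes. They were set against the program most like them, 1315 DEFB119-dominant barcodes that met the first 2 conditions but had an EDDM13 to DEFB119 ratio under 0.45 (median 1181 UMIs), and against 646 CST11/PTGDS barcodes, in which the 5-gene sum reached 1.2% (median 1281.5 UMIs). The same conditions found 0 barcodes among 8610 in testis and 0 among 9611 in corpus. Barcodes are named by running cell numbers, so barcodes shared between libraries could not be counted. Doublets had not been removed, and 17 EDDM13-rich barcodes were merged from more than 1 bead. With 1 library a tissue there is no replicate, so no test was made. Levels are UMIs per 1000000 UMIs (CPM), summed over barcodes. Intervals are exact Poisson for a level, exact conditional binomial for a ratio and Clopper-Pearson for a share, all at 95%, and cover counting error only.

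The values that define the cells are a description. Single EDDM13-rich barcodes held 4 to 103 EDDM13 UMIs (median 12) and 7 to 162 DEFB119 UMIs (median 18). As a share of the barcode, EDDM13 ran between 0.367 and 2.59% (median 0.905%) and DEFB119 between 0.801 and 5.51% (median 1.31%). The ratio of the pair had a median of 0.606 and reached 2.11, and 30 barcodes held more EDDM13 than DEFB119. Summed, EDDM13 stood at 10353 CPM in EDDM13-rich barcodes, against 5364 in DEFB119-dominant and 4732 in CST11/PTGDS barcodes. DEFB119 stood at 15685 CPM in EDDM13-rich, against 23362 in DEFB119-dominant and 9609 in CST11/PTGDS barcodes, so the EDDM13-rich cells had both more EDDM13 and less DEFB119 than the program most like them. CST11 was at 54.5 CPM in EDDM13-rich barcodes and 5156 CPM in CST11/PTGDS barcodes, and PTGDS at 178 and 6433 CPM in the same order.

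The cut at 0.45 runs through a continuous spread. There were 44 barcodes with a ratio of 0.45 to 0.50 inside it and 87 with a ratio of 0.40 to 0.45 outside, the nearest at 0.448. At the DEFB119 limit, 50 barcodes lay at 0.8 to 0.9% inside and 41 at 0.7 to 0.8% outside, and 301 caput barcodes with at least 0.5% EDDM13 stayed out for too little DEFB119. Of the CST11/PTGDS barcodes, 76 met both other conditions. When each barcode's UMIs were split at random into 2 sets and the conditions applied to 1 set, 344 barcodes were chosen, 201 of them the same as with all UMIs. Their EDDM13 to DEFB119 ratio was 0.672 in the set that chose them and 0.498 in the set that did not, while DEFB119-dominant barcodes had 0.210 and 0.259. CST11/PTGDS barcodes had 0.490 and 0.495. In the UMIs that had no part in the choice, the chosen group's ratio was thus lower than in those that had, above that of the DEFB119-dominant group and level with that of the CST11/PTGDS group.

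**Figure D1:**
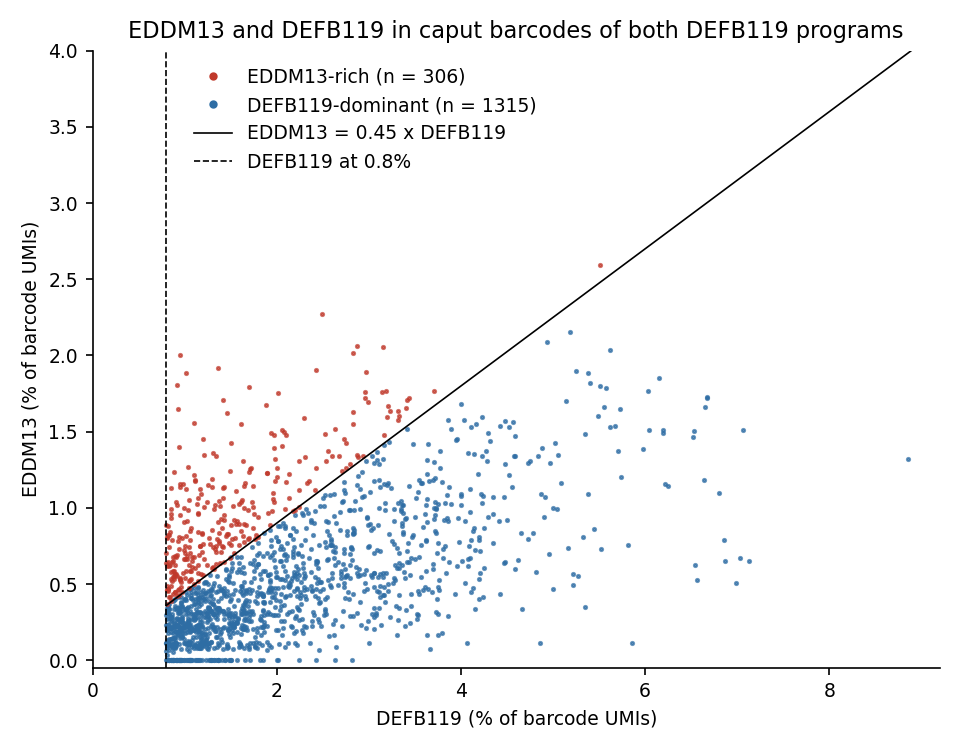
Each point is 1 caput barcode, with DEFB119 (x axis) and EDDM13 (y axis) as a percentage of its UMIs, red for the 306 EDDM13-rich and blue for the 1315 DEFB119-dominant barcodes, and lines at the limits of 0.8% and 0.45. The points form 1 continuous cloud that the sloping line divides.

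The barcodes carried transcripts of luminal epithelium. A list of 26 luminal epithelial markers took 3.68% of UMIs in EDDM13-rich barcodes, against 2.51% in DEFB119-dominant, 2.68% in CST11/PTGDS and 0.541% in all other caput barcodes, and 303 of the 306 held at least 5 UMIs of it. In EDDM13-rich and DEFB119-dominant barcodes most of that share was the secretory gene BSPH1 (26873 and 18376 CPM), so it does not measure epithelial identity alone. EPCAM, KRT8, KRT18 and KRT19, also in the list, were seen in 44.4, 19.0, 11.8 and 6.54% of EDDM13-rich barcodes. Every other class list (basal, clear or narrow, ciliated, T and NK, macrophage, fibroblast, smooth muscle, endothelial, germ and Sertoli cells) took between 0.0105 and 0.102% in EDDM13-rich barcodes. The basal keratins KRT5, KRT14, KRT15 and KRT17, the ciliated cell factor FOXJ1 and the Sertoli cell factor SOX9 had 0 UMIs in them. The immune lists together reached 5 UMIs in 17 EDDM13-rich barcodes and the fibroblast list in 11, against 92 and 63 of the DEFB119-dominant barcodes.

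Compared with DEFB119-dominant cells, EDDM13-rich cells had more transcript of a small set of beta-defensins, of several lysosomal genes, of the secreted chaperone CLU, and of the sperm-binding protein ELSPBP1. A gene counted as higher or lower when both ends of its interval were past 1.5-fold and the program with more of it had at least 50 UMIs. Of 5025 genes measured, leaving out the 7 genes of the rule, 55 were higher (1.09%) and 34 lower (0.677%), and the median gene had a log2 ratio of -0.24. Scaled to the 3 abundant secretory genes NPC2, SPINK2 and BSPH1 in place of all UMIs, 17 were higher, all of them among the 55, and 388 lower. The 10 leading higher genes reported here were among the 17. Calls lost by it included ELSPBP1 (ratio 1.48 by that scaling), EPCAM (1.48), PDIA6 (1.47), AGA (1.42), EDDM3B (1.40), RCN1 (1.34), HSP90B1 (1.21), ADAM7 and MUC15, and also MAN2B2, CLDN7 and CLDN8, whose ratios of 1.77, 1.84 and 1.86 had intervals that reached below 1.5-fold.

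ELSPBP1, which binds sperm in cattle and dogs, showed the difference in most barcodes. Among EDDM13-rich barcodes it had a median of 3811 CPM per barcode (lowest 0, highest 16862), against a median of 1705 CPM in DEFB119-dominant and 0 in CST11/PTGDS barcodes. Summed, ELSPBP1 stood at 4989 CPM in EDDM13-rich, 2464 CPM in DEFB119-dominant and 832 CPM in CST11/PTGDS barcodes, a ratio of 2.02 (1.93 to 2.13) to the first of these and 5.99 (5.54 to 6.49) to the second. The distributions overlap, since the lowest barcode of each program held none and the highest CST11/PTGDS barcode 11119.9 CPM. With each barcode thinned to 800 UMIs, ELSPBP1 was seen in 84.6% of EDDM13-rich, 70.2% of DEFB119-dominant and 32.0% of CST11/PTGDS barcodes, and in 24.2% of 1401 immune-marked caput barcodes (median 1287 UMIs) that serve as the level of free RNA and doublets. Unthinned, the shares were 89.2, 79.8, 47.8 and 34.4% in the same order. The single richest barcode gave 3.11% of ELSPBP1 UMIs in the EDDM13-rich group, and the ratio without it was 1.99.

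**Figure D2:**
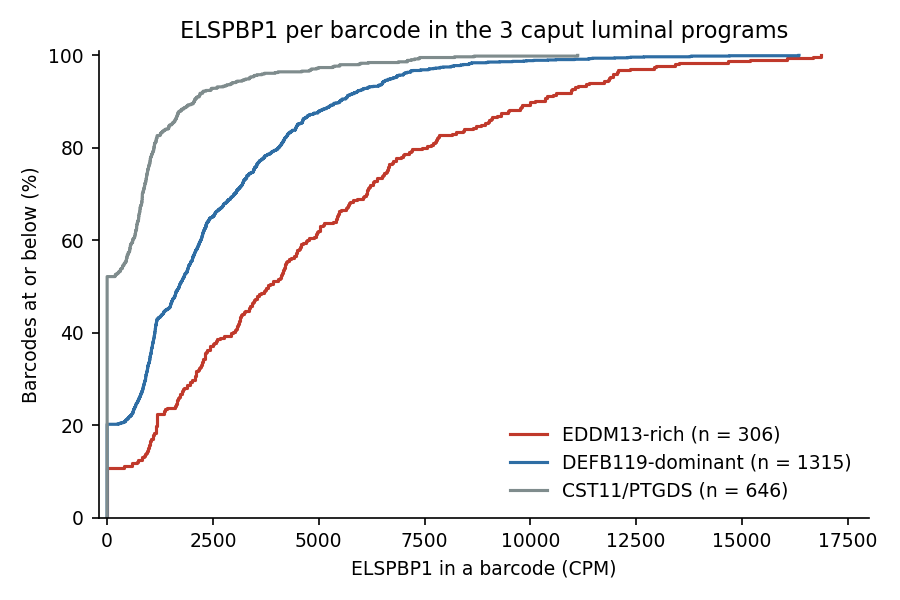
Cumulative share of barcodes (y axis, %) at or below a given ELSPBP1 level (x axis, CPM in the barcode) for the 3 caput luminal programs. The EDDM13-rich line lies to the right of the other lines, with medians of 3811 CPM in EDDM13-rich, 1705 CPM in DEFB119-dominant and 0 CPM in CST11/PTGDS barcodes.

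Several lysosomal genes were higher. In a list of lysosomal hydrolases and membrane proteins, added after values had been seen, 6 of 15 measured genes were higher in EDDM13-rich than in DEFB119-dominant barcodes and 0 lower, with a median log2 ratio of 0.71. Over all genes measured, 1.09% were higher and 0.677% lower. LAMP2, a main protein of the lysosomal membrane, stood at 913 CPM in EDDM13-rich and 356 CPM in DEFB119-dominant barcodes (ratio 2.57, 2.27 to 2.90). AGA, which cleaves the link between sugar and asparagine in glycoproteins, stood at 2869 against 1474 CPM. MAN2B2, an alpha-mannosidase described as epididymis-specific in the pig, stood at 249 against 103 CPM (ratio 2.43, 1.91 to 3.07). The others were GLB1 (beta-galactosidase, ratio 2.01), CD63 (a tetraspanin of late endosomes, 1.75) and IFI30 (a lysosomal thiol reductase, 3.50). Scaled to NPC2, SPINK2 and BSPH1, AGA, MAN2B2, GLB1 and CD63 lost their calls, and LAMP2 and IFI30 kept theirs. IFI30 stood at 124 CPM in EDDM13-rich barcodes and at 142 CPM in immune-marked ones, so its level was not above that of immune-marked barcodes. Without barcodes holding 5 or more immune or fibroblast UMIs, its interval against DEFB119-dominant barcodes stayed beyond 1.5-fold. The part of immune RNA in the remaining barcodes was not tested. The cathepsin D gene CTSD had 37 UMIs in EDDM13-rich barcodes, too few to be called, with 77.5 CPM in EDDM13-rich and 29.4 CPM in DEFB119-dominant barcodes (ratio 2.64, 1.69 to 4.09). Against CST11/PTGDS barcodes, 3 of 19 genes of the list were higher and 2 lower, with a median log2 ratio of -0.16. Over all genes measured in that comparison, 2.48% were higher and 4.08% lower. LAMP2 had 913 CPM in EDDM13-rich and 921 CPM in CST11/PTGDS barcodes, AGA 2869 and 2980 CPM, CD63 1053 and 1279 CPM, and CTSD 77.5 and 487 CPM, so these were not above the CST11/PTGDS level.

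The beta-defensins are small cationic peptides with antimicrobial activity, and in the epididymis several coat sperm. Of 10 measured outside the rule, 4 were higher and 0 lower against DEFB119-dominant barcodes, with a median log2 ratio of 0.43. The share over all genes was 1.09% higher and 0.677% lower. DEFB129 had 160 UMIs in EDDM13-rich barcodes, 335 CPM, against 62.5 CPM in DEFB119-dominant barcodes (ratio 5.36, 4.19 to 6.87). DEFB135 had 157 against 34.3 CPM (4.59, 3.24 to 6.52), DEFB116 had 182 against 56.0 CPM (3.25, 2.42 to 4.37) and DEFB134 had 253 against 82.1 CPM (3.09, 2.41 to 3.95). For DEFB129, DEFB135 and DEFB116, the DEFB119-dominant level was at or under that of immune-marked barcodes (69.6, 49.6 and 69.6 CPM), taken here as the background of the library. The 7211 caput barcodes outside the 3 programs stood above that background, at 154, 90.5 and 105 CPM in the same order. These transcripts were thus not confined to EDDM13-rich barcodes. Each was seen in a minority of EDDM13-rich barcodes. At this depth a transcript of such a level can go unseen, so the share of cells that carry it was not measured. After thinning to 800 UMIs, DEFB129 was seen in 49 of the 306 EDDM13-rich barcodes (12.1 to 20.6%), in 4.49% of DEFB119-dominant and in 3.07% of immune-marked barcodes (24.2, 7.30 and 4.71% unthinned). Beta-defensins are a family of related genes, and no source used here says how reads of near copies were assigned, so their split is uncertain.

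The other leading genes were C14H16orf89, the orthologue by name of a human open reading frame, at 279 CPM in EDDM13-rich against 56.0 CPM in DEFB119-dominant barcodes (ratio 4.97, 3.82 to 6.50), and ECRG4, which encodes the secreted peptide precursor augurin, at 201 against 61.4 CPM (3.27, 2.47 to 4.33). COL18A1, a basement membrane collagen, had 140 against 46.2 CPM. Its interval reached below 1.5-fold when the 5% of caput barcodes with the most UMIs were left out (ratio 1.80, lower bound 1.13).

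**Figure D3:**
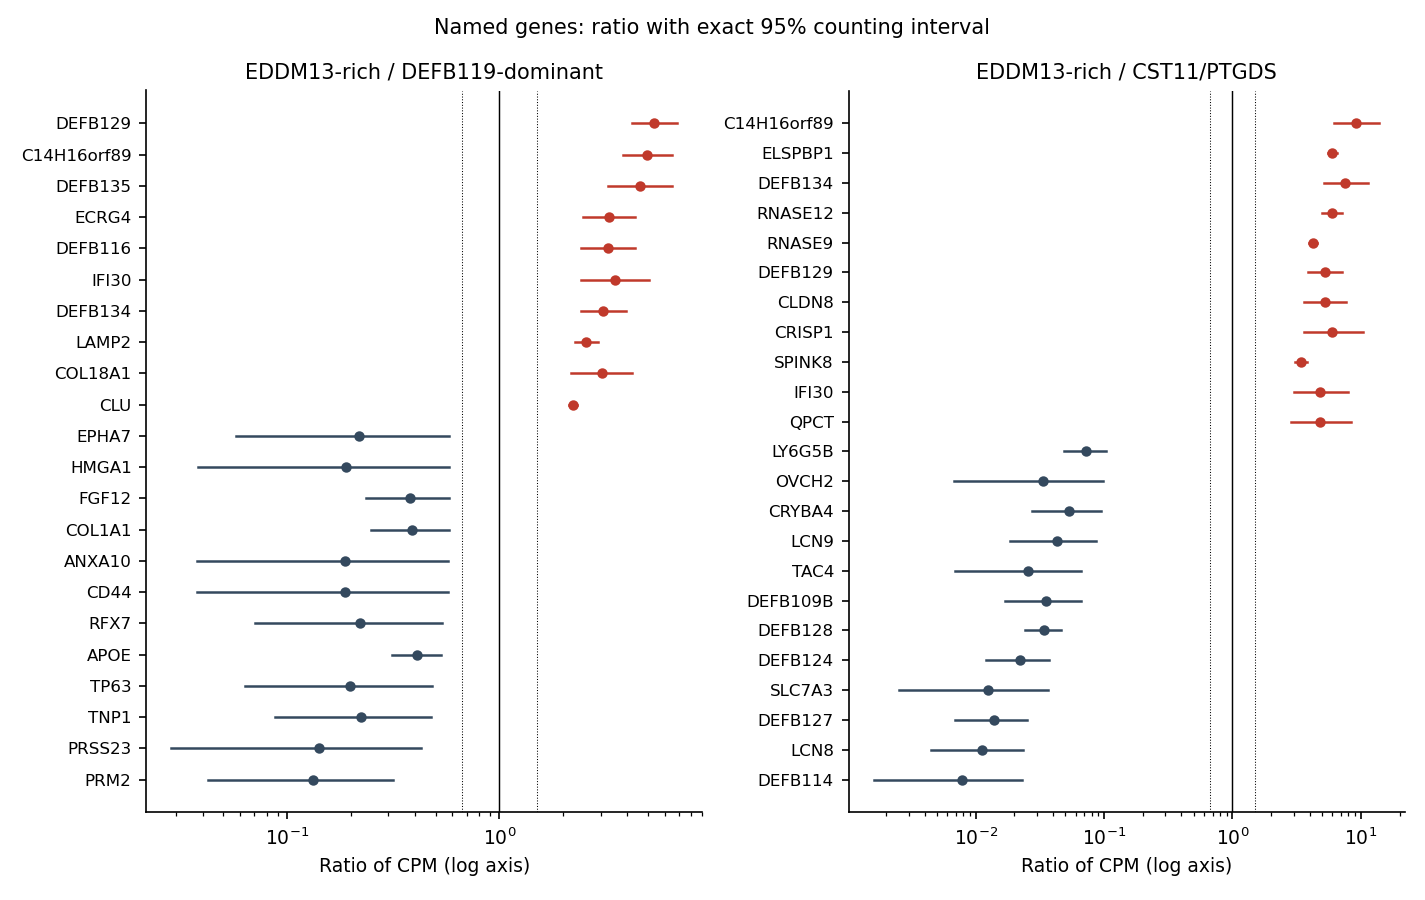
Ratio of CPM (log axis) with its exact 95% counting interval for leading genes in each direction (10 higher and 12 lower in EDDM13-rich over DEFB119-dominant, left, 11 higher and 12 lower in EDDM13-rich over CST11/PTGDS, right), red where higher and dark blue where lower in EDDM13-rich barcodes, with dotted lines at 1.5-fold. The ratios of higher genes run up to 5.36 on the left and 9.12 on the right, and those of lower genes reach 0.00782 on the right.

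Among sperm-coating and maturation genes, 4 of 15 were higher and 0 lower, with a median log2 ratio of 0.53. The share over all genes was 1.09% higher and 0.677% lower. CLU, an extracellular chaperone abundant in caput fluid, stood at 6411 CPM in EDDM13-rich and 2875 CPM in DEFB119-dominant barcodes (ratio 2.23, 2.13 to 2.33). ELSPBP1 had the values above. EDDM3B, another epididymal secretory protein, stood at 1238 against 644 CPM, and ADAM7, a membrane protein passed to sperm in mice, at 2624 against 1592 CPM. Those with the most UMIs had smaller ratios and were not called. BSPH1, a binder of sperm, had 26873 against 18376 CPM (1.46, 1.43 to 1.49), NPC2, a cholesterol carrier, 24297 against 18802 CPM (1.29, 1.27 to 1.32), and SPINK2, a protease inhibitor, 19528 against 14438 CPM (1.35, 1.32 to 1.38). RNASE12, a secreted ribonuclease relative, was higher (993 against 415 CPM, ratio 2.39, 2.13 to 2.69).

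Some genes of epithelial contacts and of the endoplasmic reticulum were higher as well. CLDN7 and CLDN8, tight junction claudins, and the adhesion molecule EPCAM were 3 of 5 measured junction and keratin genes, at ratios of 2.52, 2.54 and 2.03 and a median log2 ratio of 1.02 for the list. EPCAM had 528 CPM in EDDM13-rich, 260 CPM in DEFB119-dominant and 523 CPM in CST11/PTGDS barcodes. In the list of reticulum folding and secretion, 3 of 31 genes were higher and 0 lower, with a median log2 ratio of 0.60. They were RCN1, a calcium-binding protein of the reticulum (2792 against 1523 CPM, 1.83), PDIA6, a disulphide isomerase (461 against 229 CPM, 2.01), and the chaperone HSP90B1 (1709 against 1030 CPM, 1.66). Of 19 genes of Golgi and vesicle traffic, 0 were called in either direction, near the share over all genes (1.09% higher and 0.677% lower). MUC15, a membrane mucin, had 3785 against 2311 CPM (1.64, 1.55 to 1.73).

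Many genes of the same cells did not differ by this measure. CITED1, a transcriptional co-regulator, had 1908 CPM in EDDM13-rich and 2210 CPM in DEFB119-dominant barcodes (ratio 0.863, 0.803 to 0.928), and the homeodomain-only factor HOPX 1629 against 1842 CPM (0.884, 0.817 to 0.956). The lipocalin LCN10 had 609 CPM in each (0.876 to 1.14). No gene was called in either direction among 78 ribosomal protein genes, 62 of oxidative phosphorylation, 15 antioxidant genes, 9 immediate-early and stress genes, 9 epithelial transcription factors and 8 genes of steroid receptors and enzymes. Over all 5025 genes measured, 1.09% were higher and 0.677% lower, so few or no calls in lists of these sizes lie near the general share. A gene that was not called is not shown to be equal.

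The lower genes rested on few UMIs. The 12 leading ones of the 34 had between 3 and 66 UMIs in EDDM13-rich barcodes, and among them were PRM2 and TNP1, which package DNA in spermatids (10.5 and 14.7 CPM in EDDM13-rich, against 79.4 and 65.8 CPM in DEFB119-dominant barcodes), the basal cell factor TP63 (10.5 against 52.7 CPM), COL1A1 (54.5 against 141 CPM) and APOE (138 against 337 CPM). The fibroblast markers COL1A1, COL1A2 and COL3A1 were 3 of 8 measured, and that list took 0.102% of UMIs in EDDM13-rich against 0.185% in DEFB119-dominant barcodes. Of all genes measured, 0.677% were lower. Without barcodes holding 5 or more immune or fibroblast UMIs, the ratio was 1.02 for APOE and 1.01 for COL1A2. COL1A2 is itself in the fibroblast list, so leaving out those barcodes lowers its counts by construction. With a ratio limit of 0.35 in place of 0.45, 0 of the 12 leading lower genes and all 10 leading higher genes reported here stayed beyond 1.5-fold. When genes were counted in the UMIs that had not chosen the barcodes, 1 of 12 lower and 8 of 10 higher genes did, the 2 lost being COL18A1 and DEFB134. The leading genes had been ranked on all UMIs, so only the choice of barcodes was held out, not that of genes.

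Some abundant genes followed the EDDM13 to DEFB119 ratio below the limit as well as above it, and others did not. Across 7 bins of the ratio, CLU stood at 1410 CPM in the 218 barcodes under 0.1, then at 1800.0, 3148 and 4338 CPM in the bins that start at 0.1, 0.2 and 0.3. CLU stood at 5586, 6876 and 7419 CPM in the EDDM13-rich bins that start at 0.45, 0.6 and 0.8, the last with 72 barcodes. ELSPBP1 went the same way, 1536 CPM in the lowest and 6507 CPM in the highest bin (but 4571 and 4439 CPM in the bins at 0.45 and 0.6), as did LAMP2 (190.0 and 1257 CPM), AGA (784 and 2957 CPM) and NPC2 (13050 and 25791 CPM), although AGA was highest in the bin at 0.6 (3369 CPM). NPC2 was not called in the comparison above. DEFB129 had a different shape. It stayed between 48.9 and 71.6 CPM in the 4 bins under 0.45, then stood at 259, 249 and 593 CPM in the EDDM13-rich bins. DEFB135 had 16.3 to 47.2 CPM in the bins under 0.45 and 336 CPM in the highest. DEFB116, IFI30 and COL18A1 likewise showed no steady course below 0.45, with ranges of 31.7 to 70.8, 18.3 to 43.8 and 35.6 to 63.7 CPM. CITED1 stayed between 1727 and 2319 CPM and HOPX between 1603 and 1949 CPM over all 7 bins, with no order along them. The median depth of the bins lay between 1059 and 1276.5 UMIs.

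**Figure D4:**
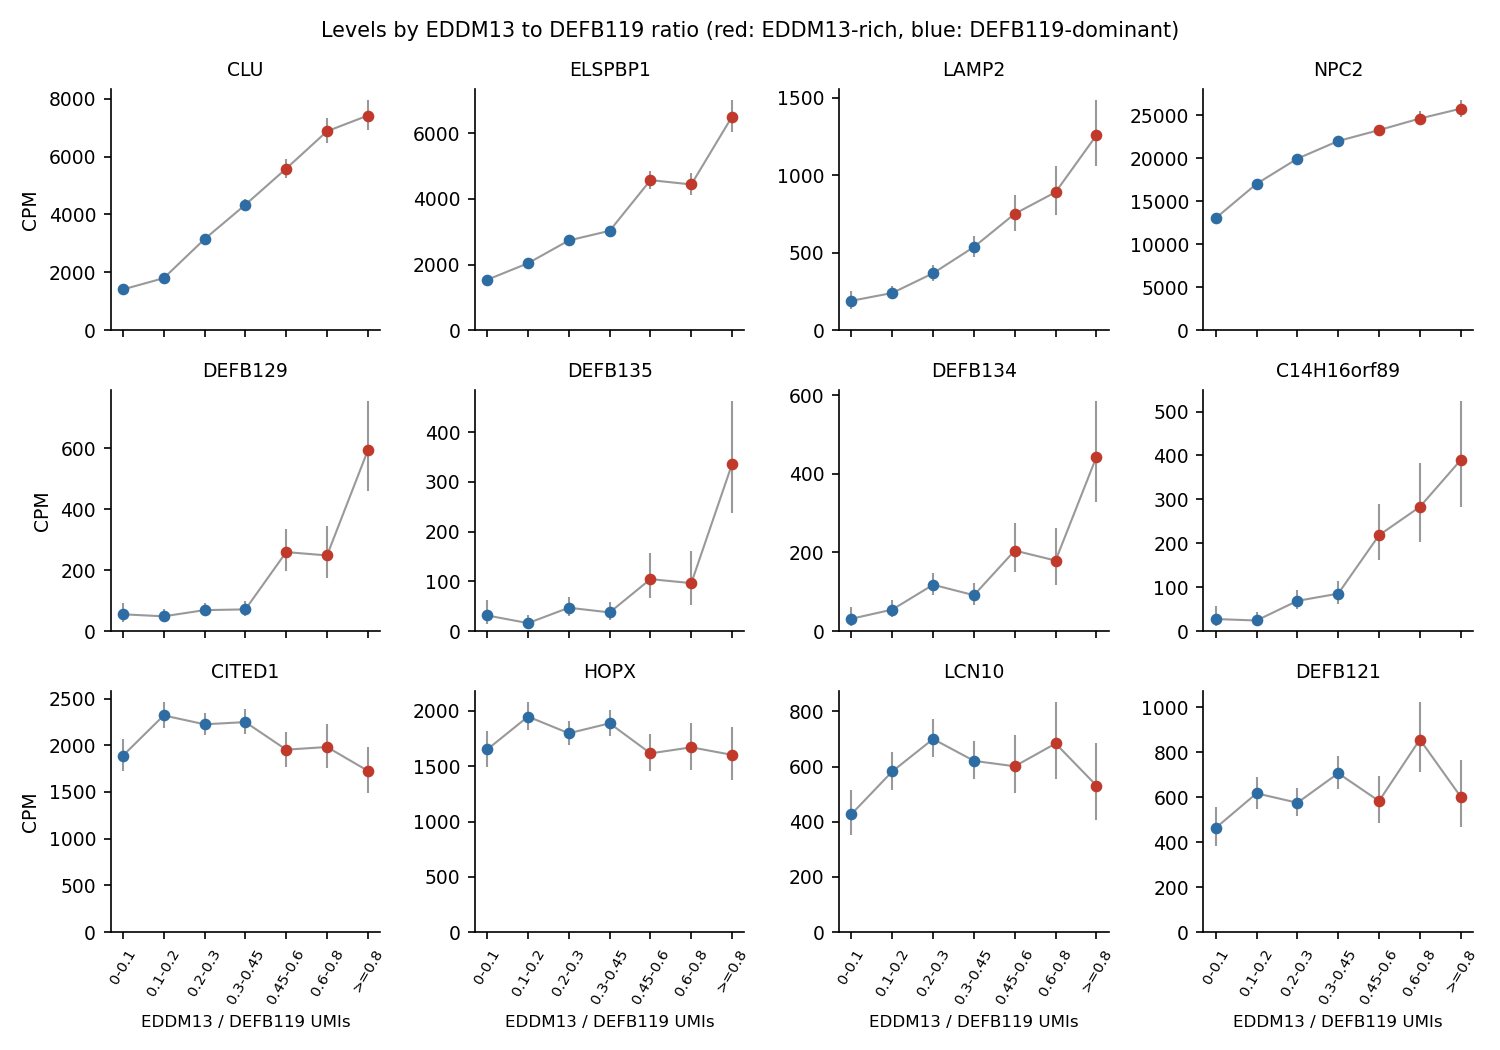
CPM with exact 95% Poisson intervals (y axes, starting at 0) in 7 bins of the EDDM13 to DEFB119 UMI ratio (x axes) over both DEFB119 programs, red points for EDDM13-rich and blue points for DEFB119-dominant bins. CLU increases in every bin (1410 CPM in the lowest, 7419 CPM in the highest), DEFB129 stays under 72 CPM up to the limit of 0.45, and CITED1, HOPX, LCN10 and DEFB121 show no steady course.

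The EDDM13-rich barcodes also varied among themselves. The 102 with the fewest UMIs (844 to 1058) had ELSPBP1 at 3259 CPM, the 102 in the middle at 4652 CPM and the 102 with the most (1494 to 8139) at 5802 CPM. CLU stood at 4230, 5049 and 7898 CPM in the same order, and CITED1 at 2047, 1850 and 1885 CPM, so ELSPBP1 and CLU moved with depth and CITED1 did not. Over the 306 barcodes, the Spearman correlation with ELSPBP1 was 0.64 for RNASE9, 0.60 for BSPH1, 0.58 for NPC2 and 0.53 for RCN1, against 0.36 for DEFB129, 0.29 for DEFB134 and 0.04 for CITED1. These correlations are descriptions over barcodes of 1 library, which share its depth. DEFB129 and DEFB134 were seen in 24.2 and 21.6% of the 306 barcodes, against 94.1% for RNASE9 and 87.3% for CITED1. The many zeros of DEFB129 and DEFB134 limit their correlations. Of DEFB129, DEFB135, DEFB116, DEFB134, C14H16orf89 and ECRG4, a set picked after their values were seen, 96 EDDM13-rich barcodes (31.4%, 26.2 to 36.9%) held 2 or more, against 108 DEFB119-dominant (8.21%) and 37 CST11/PTGDS barcodes (5.73%). Each of these genes had been called higher in EDDM13-rich than in DEFB119-dominant barcodes, so a larger share there follows from the choice. Those 96 were deeper (median 1777 UMIs, against 1072 in the 141 with none) and had more ELSPBP1, 7038 against 2979 CPM.

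Against CST11/PTGDS barcodes, EDDM13-rich cells had more of some beta-defensins, of the secreted ribonuclease relatives RNASE9 and RNASE12 and of ELSPBP1, and far less of other beta-defensins and of epididymal lipocalins. Of 2697 genes measured outside the rule, 67 were higher (2.48%) and 110 lower (4.08%) in EDDM13-rich barcodes, and the median log2 ratio was -0.13. Scaled to NPC2, SPINK2 and BSPH1, 16 were higher and 1371 lower. There were 23 genes higher against both programs, 5 lower against both, and 3 that were higher against DEFB119-dominant but lower against CST11/PTGDS barcodes. Both comparisons use the same EDDM13-rich barcodes.

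On the higher side, C14H16orf89 had 279 CPM in EDDM13-rich against 30.5 CPM in CST11/PTGDS barcodes (ratio 9.12, with a lower bound of 6.13). DEFB134 had 253 against 33.5 CPM (7.57, 5.14 to 11.4). ELSPBP1 had 4989 against 832 CPM (5.99, 5.54 to 6.49), RNASE12 993 against 166 CPM (5.96, 4.99 to 7.15) and RNASE9, another secreted ribonuclease relative, 4834 against 1133 CPM (4.27, 3.97 to 4.58). RNASE10, a gene of the rule, went the other way (1956 against 11982 CPM), and with it the secreted ribonuclease list took 0.793% of UMIs in EDDM13-rich and 1.34% in CST11/PTGDS barcodes. The cysteine-rich sperm-coating protein CRISP1 had 124 against 20.7 CPM and the protease inhibitor SPINK8 1757 against 512 CPM. BSPH1 (2.66), NPC2 (1.87) and WFDC11 (2.72) were called here, unlike in the closer comparison. The direction of GSTM3, HSPB1 and RCN1 (ratios 1.89, 1.75 and 1.64) turned when CPM was scaled to NPC2, SPINK2 and BSPH1, to 0.967, 0.894 and 0.838, as did that of NPC2 (0.956), 1 of the genes scaled to. STMN1, a microtubule regulator, had a ratio of 2.88, but 21.5% of its UMIs in EDDM13-rich barcodes came from 1 barcode.

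On the lower side were genes of the CST11/PTGDS program outside the rule. DEFB114 had 6.28 CPM in EDDM13-rich against 804 CPM in CST11/PTGDS barcodes (ratio 0.00782, 0.00161 to 0.0229), the epididymal lipocalin LCN8 14.7 against 1304 CPM (0.0112), DEFB127 23.0 against 1659.6 CPM (0.0139) and the cationic amino acid transporter SLC7A3 6.28 against 508 CPM (0.0124). The levels of these 4 in EDDM13-rich barcodes were below those in immune-marked barcodes (32.3, 49.1, 92.4 and 20.0 CPM). ADAM7 had 2624 against 10636 CPM (0.247, 0.233 to 0.262), CLU 6411 against 11244 CPM (0.570, 0.548 to 0.593) and LCN10 609 against 1264 CPM. ADAM7 and CLU thus stood between the DEFB119-dominant and the CST11/PTGDS level. Of 11 measured beta-defensins, 5 were higher and 5 lower, with a median log2 ratio of 0.79. Over all genes measured in this comparison, 2.48% were higher and 4.08% lower. Of 6 lipocalins, 0 were higher and 3 lower, with a median of -0.97, and of 7 genes of lipid and retinoid metabolism 4 were lower, among them APOE, whose ratio of 0.486 was 1.06 without immune- or fibroblast-marked barcodes.

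Genes that lie next to each other did not always share a direction. In the order of the RefSeq table (assembly EquAss-T2T_v2), DEFB129 stands beside DEFB128, with DEFB127 a gene further on. Against CST11/PTGDS barcodes DEFB129 had a ratio of 5.23 (3.90 to 7.10), while DEFB128 had 0.0338 (85.9 against 2539 CPM in CST11/PTGDS) and DEFB127 0.0139. DEFB118, DEFB119 and DEFB121 stand in a row, and DEFB118 had a ratio of 1.99 (1.60 to 2.46) while DEFB121 had 0.153 (0.136 to 0.171). DEFB134 and DEFB135 are neighbours and were both higher, as were BSPH1 and ELSPBP1, also neighbours. RNASE9 and RNASE12 were higher, while RNASE10 of the same row, which the rule itself kept low, had 1956 CPM in EDDM13-rich against 11982 CPM in CST11/PTGDS barcodes.

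The corpus library gives the level of the same genes in the next segment. Corpus luminal barcodes were defined after values were seen, as 152 corpus barcodes with at least 1% of UMIs in 7 corpus secretions (CD52, LTF, PATE1, DEFB136, SPINT4, DEFB126 and DEFB125), and held 122802 UMIs, so 1 UMI is 8.14 CPM. The libraries differ in depth and were prepared separately, so segment and library cannot be told apart, and no fold was taken. EDDM13 and DEFB119 had 0 UMIs in the corpus luminal barcodes, which allows up to 24.4 CPM (3 UMIs). Of the 55 genes higher in EDDM13-rich than in DEFB119-dominant caput barcodes, 35 (63.6%) stood higher in corpus luminal than in EDDM13-rich barcodes. So did 28 of the 34 lower genes (82.4%) and 2295 of all 5025 measured (45.7%). Above the DEFB119-dominant level stood 41 of the 55, 6 of the 34 and 1546 of the 5025. The genes were chosen by their levels in these 2 caput groups, which shapes both sets of counts, so no conclusion is drawn from them. The 35 included DEFB129 (335 CPM in EDDM13-rich, 5554 CPM in corpus luminal barcodes), ECRG4 (201 and 3909 CPM), LAMP2 (913 and 3868 CPM), EDDM3B (1238 and 3966 CPM), C14H16orf89 (279 and 2223 CPM), DEFB135 (157 and 1995 CPM) and DEFB116 (182 and 1539 CPM). Others did not follow. MUC15 had 3785 CPM in EDDM13-rich and 415 CPM in corpus luminal barcodes, DEFB134 253 CPM and 2 UMIs, RCN1 2792 CPM and 1 UMI, and COL18A1 140 CPM and 0 UMIs. In the testis library ELSPBP1 stood at 0.944 CPM and DEFB129 at 0.0419 CPM, so the testis was low in both.

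**Figure D5:**
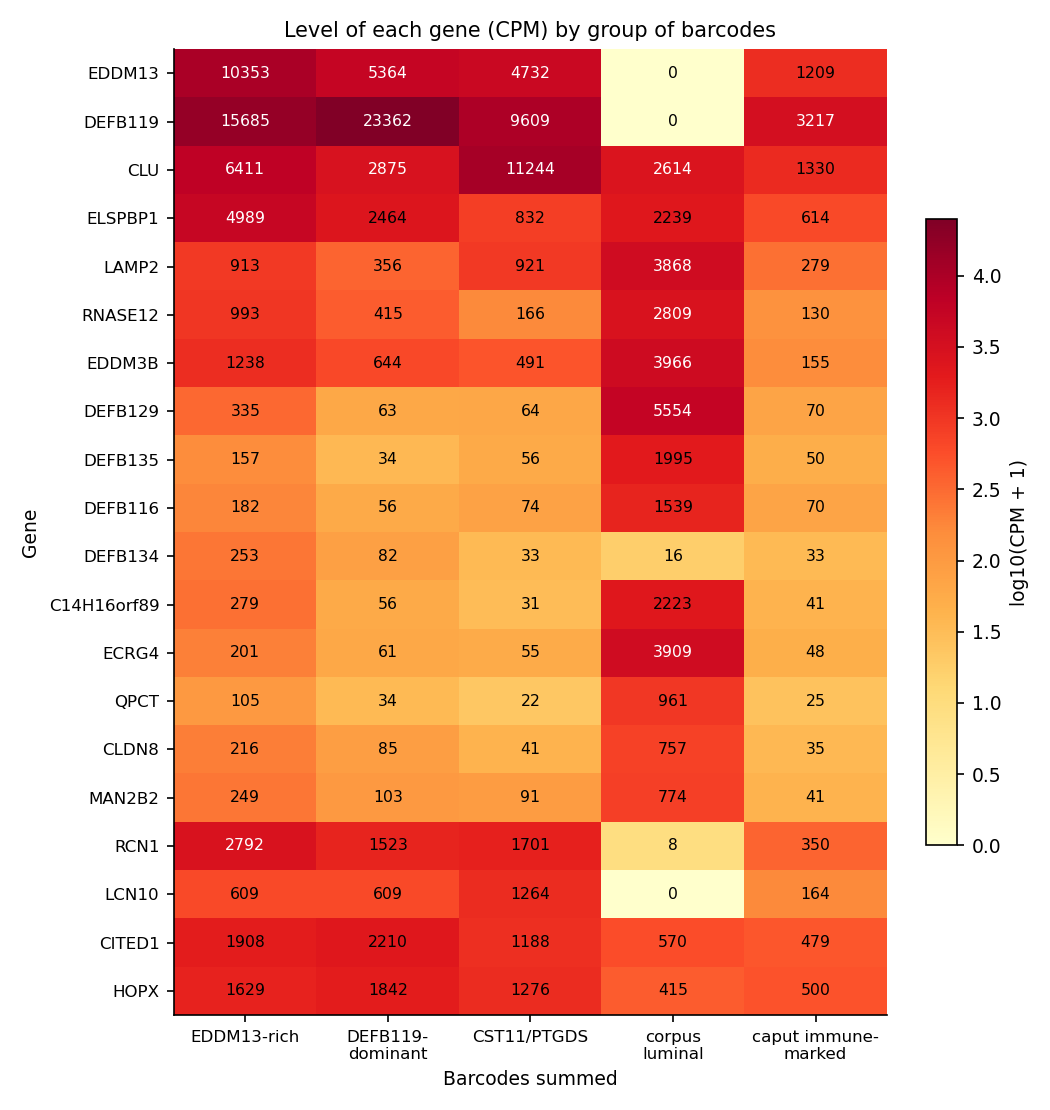
Level of 20 genes (rows) in 5 groups of barcodes (columns), with the CPM printed in each cell and the colour giving log10(CPM + 1). DEFB129, DEFB135, DEFB116, C14H16orf89 and ECRG4 are higher in EDDM13-rich than in the other caput columns and higher again in corpus luminal barcodes, whereas EDDM13 and DEFB119 are at 0 there.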

How the data were processed

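The authors deposited UMI counts, not normalized, in matrices whose headers name PISA v0.12 as the program that wrote them. Per the submitters' processing notes, Cell Ranger 2.1.1 was also used, for a step they do not name. Aligner, genome build and strand: not given in the sources used here. Symbols are those of the files, and the RefSeq table gave a name to 743 of 17762 caput locus identifiers. It was used for names and gene order, and no sequences are printed.

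Members were found in all deposited caput barcodes. Counts were summed per program and divided by the total, with intervals from scipy 1.17.1 (Python 3.11.15, numpy 2.4.6, pandas 2.3.3, matplotlib 3.10.9). Calls needed both ends of the 95% interval past 1.5-fold and at least 50 UMIs in the program with more. The code was tested on simulated data. Immune-marked barcodes held at least 5 UMIs of the immune lists and were not EDDM13-rich. Among them are 92 DEFB119-dominant and 54 CST11/PTGDS barcodes. Named genes were in each direction the 12 with a symbol and the interval farthest from 1, up to 4 per list, the 7 rule genes and the 15 with the most UMIs. AGA, GLB1, CD63, RNASE9 and the genes given as not differing were added after values were seen. Some genes that this rule names are not reported here. The members and the gene lists were chosen with earlier results of these data known. Where a barcode's UMIs were split at random or thinned, a fixed seed was used. Alternatives changed the limits, depth, scaling and barcodes kept. Doublets were not called. A count of 0 allows up to 3 counts.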

Additional observations from a re-analysis of the deposited data

How the results depend on the processing

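The share of caput barcodes that were members was 5.30% with a ratio limit of 0.35, 1.74% with 0.6, 1.78% with DEFB119 at 1.2% and 3.63% by UMIs split at random. Against DEFB119-dominant barcodes, the number of genes higher was 23 in the UMIs that had not chosen the barcodes (21 of them among the 55), 34 without the 5% deepest barcodes, 25 with barcodes thinned to 1000 UMIs, 17 beyond 2-fold and 85 with a minimum of 10 UMIs. The number lower was 12 with a limit of 0.35, 57 with 0.6, 10 in the other UMIs (2 of them among the 34), 20 thinned, 4 beyond 2-fold and 62 with 10 UMIs. Against CST11/PTGDS barcodes, the number higher was 37, 30, 37 and 138, and the number lower 63, 65, 63 and 180, in the other UMIs, thinned, beyond 2-fold and with 10 UMIs. Scaled to NPC2, SPINK2 and BSPH1, an alternative chosen after seeing the data, 17 were higher and 388 lower against DEFB119-dominant, and 16 higher and 1371 lower against CST11/PTGDS barcodes. That scaling takes the level of the 3 genes, which were higher in EDDM13-rich barcodes, as equal. Directions turned for PRM2 (1.69 with a limit of 0.35), ANXA10 and EPHA7 (1.21 and 1.80 in the other UMIs), for RCN1, GSTM3, HSPB1 and NPC2 against CST11/PTGDS (0.838, 0.967, 0.894 and 0.956 by that scaling), and without immune- or fibroblast-marked barcodes, also chosen after seeing the data, for APOE (1.02 against DEFB119-dominant, 1.06 against CST11/PTGDS) and COL1A2 (1.01). COL1A2 is itself in the fibroblast list that marked those barcodes. The thinned and split settings held fewer UMIs, and splitting also changed which barcodes were members. The cause of these changes was not tested. No paired analysis was possible because there was 1 library for each tissue, and for the same reason no replicate could be left out. Depth limited the low genes most, since 50 UMIs are 104.7 CPM in EDDM13-rich barcodes.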
